A study of Mus musculus with 9 samples.

Results

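The effect of dexamethasone (Dex, a synthetic glucocorticoid) on transcript levels was measured in burst-forming unit-erythroid progenitors (BFU-E) that had been sorted by low CD71 and low CD24a from mouse fetal liver. In RNA-seq, 1 library of Dex-treated cells was set against 1 library of cells given water. Genes were kept when they stood at 1 or more RPKM (reads per kilobase of transcript per M (mega) reads) in either library, after the exact value of 1 that stands for 0 in these files was read as 0. This left 9782 of the 19840 gene names in the files. At the edge of this filter, Nrep was kept with 0.604 RPKM in Dex and 1.0002 RPKM in water, and Il6ra, with 0.982 RPKM in Dex and 0.9998 RPKM in water, was left out. Each arm had 1 library, so the comparison has no replicate check and no p-value.

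The cells came from livers of C57BL/6 embryos at embryonic day 13.5 to 14.5. They carried Kit, lacked surface Ter119, CD34, CD41 and markers of the lymphoid and myeloid lineages, and were the 10% of such cells with the least CD71 (the transferrin receptor) and CD24a. After 4 h in serum-free medium with stem cell factor (100 ng/mL), IGF-1 (40 ng/mL) and erythropoietin (2 U/mL), the cells were divided into 4 arms and kept for another 4 h. The arms were 100 nM Dex; Dex with 333 µM DMOG (dimethyloxalylglycine, an inhibitor of prolyl hydroxylases that act on HIF alpha subunits); DMOG; and water. A second sort, by low CD71 without CD24a, gave 1 library with 100 nM Dex and 1 with water under the same culture. Fresh BFU-E, CFU-E (the later colony-forming unit-erythroid progenitor) and Ter119-positive erythroblasts had 1 library each, which made 9 libraries in all. The labels do not say how many embryos were pooled, and all cultured cells received stem cell factor, IGF-1 and erythropoietin.

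Glucocorticoids enter the cell and bind the glucocorticoid receptor, encoded by Nr3c1, which chaperones of the Hsp90 complex hold in the cytoplasm. The bound receptor moves to the nucleus, where it binds DNA at paired 6-letter elements and raises or lowers transcription of nearby genes. In the erythroid lineage glucocorticoids are known to favour self-renewal of early progenitors, including BFU-E, over maturation, and they act together with Kit and erythropoietin signalling in stress erythropoiesis.

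Promoters are shown for 3 genes that the results turn on: the gene with the largest difference in favour of Dex (Arhgef3), a classical receptor target (Tsc22d3) and a globin gene that was lower with Dex (Hbb-bt). The windows hold the 250 bases before an annotated start, 5′ to 3′ on the gene's strand, from RefSeq on GRCm38.p6. Capitals mark the 6-letter element AGAACA or its reverse complement TGTTCT. The Arhgef3 window, chr14:27237760-27238009 on the plus strand, belongs to 1 of 4 listed starts. The Tsc22d3 window, chrX:140600523-140600772 on the minus strand, belongs to 1 of 3, and the Hbb-bt window, chr7:103813924-103814173 on the minus strand, to its only one. These windows were picked because they hold the element, and the other Arhgef3 and Tsc22d3 windows hold 0 copies.
Arhgef3: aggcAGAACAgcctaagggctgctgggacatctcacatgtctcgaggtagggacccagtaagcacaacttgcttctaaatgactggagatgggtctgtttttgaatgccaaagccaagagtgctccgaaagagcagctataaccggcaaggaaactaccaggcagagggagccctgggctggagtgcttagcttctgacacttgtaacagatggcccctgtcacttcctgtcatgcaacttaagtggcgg
Tsc22d3: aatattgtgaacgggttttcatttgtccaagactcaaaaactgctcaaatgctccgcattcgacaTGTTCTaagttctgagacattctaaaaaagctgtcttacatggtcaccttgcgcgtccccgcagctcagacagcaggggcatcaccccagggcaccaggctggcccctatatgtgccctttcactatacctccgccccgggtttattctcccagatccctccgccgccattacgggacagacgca
Hbb-bt: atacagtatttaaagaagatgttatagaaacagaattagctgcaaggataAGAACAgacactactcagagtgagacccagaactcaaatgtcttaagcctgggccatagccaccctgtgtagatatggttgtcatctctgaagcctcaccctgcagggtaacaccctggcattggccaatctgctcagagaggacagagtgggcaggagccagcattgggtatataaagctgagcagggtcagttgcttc
The element, on either strand, was present in 8 of 63 windows (12.7%) of the 40 genes with a listed promoter among those 2-fold higher with Dex. It was present in 2 of 13 windows (15.4%) of the 12 such genes among those 2-fold lower. For the 12 largest differences on the higher side it was 1 of 18 windows (5.56%), the Arhgef3 window shown. For comparison, it occurred in 10.3% of the 9942 windows of all expressed genes and in 16.1% of all 32851 windows in the table. The full palindrome, AGAACA followed by any 3 letters and TGTTCT, was found in 0 windows of these genes and in 3 of the 32851. A match is a description of letters and not a binding site.

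Levels are given below as RPKM divided by 1 scaling factor per library (normalised RPKM), and differences are on the log2(normalised RPKM + 1) scale, which understates the change of low genes. The Dex library held about 19.1 M reads and the water library 18.5 M, as recovered from the steps between low values. The other 7 libraries held 11.9 M to 52.8 M. A gene of 1 kb with 3 reads would stand at 0.157 RPKM in Dex and 0.163 RPKM in water. Erythroid genes marked both libraries, with Gata1 at 130 in Dex and 133 in water and Epor at 38.3 in Dex and 43.5 in water. Markers of other cells differed in how much was present. Of 15 megakaryocyte markers 12 were expressed, with a summed level of 73.4 in Dex and 73.1 in water and Selp at 0 in both. That sum includes Itgb3, with 15.3 in Dex and 3.02 in water. Of the 12, only 2 (Itgb3 and Itga2b) were higher with Dex, and the median difference of the 12 was -0.18. Itga2b, the gene of the CD41 chain whose surface protein the sort excluded, stood at 18.9 in Dex and 17.9 in water. Of 20 neutrophil and mast cell markers 3 were expressed and 9, Elane, Ngp and S100a9 among them, were at 0 in both libraries. Their summed level was 26.6 in Dex and 48.2 in water, most of it Gata2, which progenitors also express. Macrophage markers (1 of 13 expressed, with C1qa and Cd163 at 0 in both) summed to 3.88 in Dex and 5.27 in water, and lymphoid markers (1 of 14 expressed, with Cd3e and Ms4a1 at 0 in both) to 3.50 in Dex and 2.73 in water. Hepatocyte markers (7 of 16) summed to 23.9 and endothelial markers (3 of 10) to 10.6 in Dex, against 28.6 and 10.7 in water. In bulk RNA, fewer cells of a type and less RNA per cell cannot be told apart.

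Dex was accompanied by differences in few genes. A difference of at least 1 on the log2 scale, called 2-fold here, was reached by 73 genes, of which 54 were higher with Dex (0.552% of the 9782 expressed genes) and 19 were lower (0.194%). With a pseudocount of 0.1 in place of 1 these counts were 97 and 72. The median difference over all expressed genes was -0.02, with an SD of 0.24 across genes, and 96.0% of genes lay within 0.5 of no difference. The share past 2-fold was 1.66% of genes under 1 normalised RPKM and 0.197% of those at 100 or more. Genes just inside the line on the higher side were Havcr2, Bcl2 and Pfkfb4 (1.01 each), and just outside stood Trib2 (0.998), Cyth3 (0.99) and Jak1 (0.96). On the lower side Gata2 (-1.0004), Ubb-ps (-1.01) and Id1 (-1.03) were inside and Cited4 (-0.98) was outside.

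**Figure D1:**
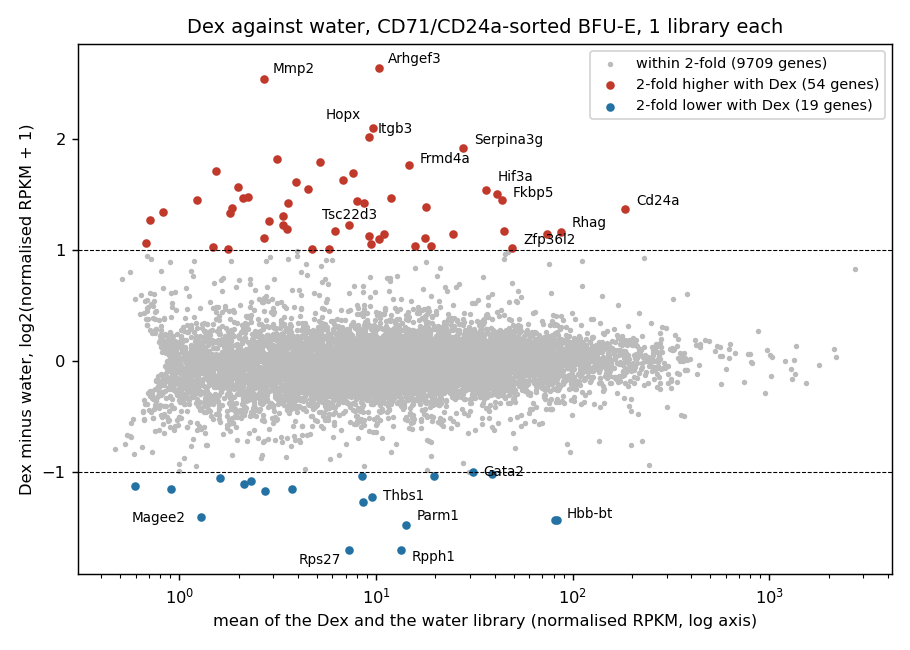
Each point is 1 of 9782 genes in CD71/CD24a-sorted BFU-E, with the mean level of the Dex and the water library on the x axis (normalised RPKM, log axis) and the Dex minus water difference on the y axis (log2 scale); dashed lines mark 2-fold. The 54 red genes lie above the upper line and the 19 blue genes below the lower line, while 96.0% of genes lie within 0.5 of 0.

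The other Dex pairs in the series offer a check with libraries that the comparison did not use, although the DMOG pair came from the same sorted cells. Of the 54 genes higher with Dex, 39 were also 2-fold higher in the CD71 sort, where 0.837% of 9673 genes were higher, and 39 in the pair with DMOG, where 0.552% of 9777 were higher. These were 72.2% of the 54 in each case, 48.1% of the 81 genes higher in the CD71 sort and 72.2% of the 54 genes higher with DMOG. Both pairs held 33 of them past 2-fold, and 51 of the 54 lay above 0 in both. Of all genes 51.4% lay above 0 in the CD71 sort and 47.6% in the pair with DMOG. Of the 19 lower genes, 8 were 2-fold lower in the CD71 sort (5.88% of its 136, which were 1.41% of genes) and 10 in the pair with DMOG (29.4% of its 34, which were 0.348% of genes). Those lower in all 3 pairs were Parm1, Hbb-b2, Hbb-bt, Rps27, Magee2, Grtp1 and Csf2rb2, which is 7 of 19.

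Across the 6 cultured libraries, limma tested Dex in the other 2 pairs, with the culture pair held in the model and Benjamini-Hochberg adjustment over 9535 genes. It called 109 genes higher (1.14%) and 30 lower (0.315%). Of the 54 higher genes, 51 could be tested and 45 of these rose in the other pairs. Of the 19 lower genes, 17 could be tested and 7 fell: Parm1, Hbb-b2, Hbb-bt, Magee2, Grtp1, Thbs1 and Csf2rb2. Read in the other direction, 108 of the 109 risen genes lay above 0 in the CD71/CD24a pair, with a median difference of 0.91, and 30 of 30 fallen genes lay below 0, with a median of -0.71. The exception was Snora15, a small nucleolar RNA, with 0.773 in Dex and 1.99 in water. The same fit tested whether the Dex difference in the CD71/CD24a pair differed from that in the other 2 and called 0 genes, with 73 at an unadjusted p under 0.05 and a smallest adjusted p of 0.602. With 1 residual degree of freedom among samples, this test sees large differences only. The counts for Dex depended on which pairs were compared. Fits with 1 Dex coefficient over 2 pairs, chosen after seeing the data, called 104 genes higher and 28 lower without the CD71/CD24a pair, 161 and 106 without the DMOG pair, and 521 and 733 without the CD71 sort pair.

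The water library of the CD71 sort stood apart in one respect that touches this check. In that pair 35 genes were at least 4-fold lower with Dex, and in 35 of the 35 the CD71 sort water library stood more than 2-fold above each of the other 5 cultured libraries. In the CD71/CD24a pair the same genes had a median difference of -0.12, and 0 genes were 4-fold lower. Levels in the CD71 sort and in the pair with DMOG are therefore given separately for a part of the named genes. Where only the limma result is given, it averages both pairs and so includes the CD71 sort water library.

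**Figure D2:**
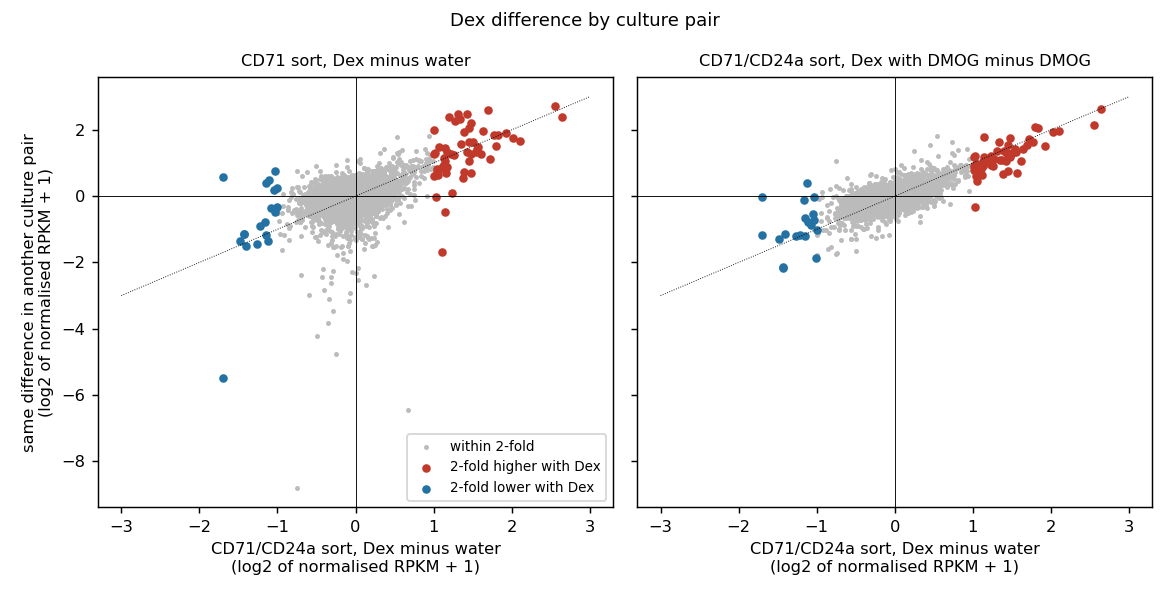
Both panels plot the Dex minus water difference in the CD71/CD24a sort (x axis, log2 scale) against the Dex difference in another culture pair (y axis, log2 scale): the CD71 sort at left and Dex with DMOG minus DMOG at right. Of the 54 red genes (2-fold higher with Dex here) 51 lie above 0 in both panels; the grey points far below 0 at left belong to genes high in the CD71 sort water library.

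Known glucocorticoid targets had a higher median difference than all expressed genes, on a list chosen with earlier results of these data known. Of 27 listed genes 20 were expressed, of which 7 were 2-fold higher and 0 were 2-fold lower. Their median difference was 0.76 against -0.02 for all expressed genes. Of the 20, 13 lay above 0, and the lowest was Irs2 at -0.46. In the other 2 pairs limma called 10 of the 20 higher and 0 lower. Fkbp5 encodes a co-chaperone that lowers the affinity of the receptor for its ligand. It had 64.4 normalised RPKM in Dex and 22.9 in water (CD71 sort, 71.7 and 22.4; with DMOG, 64.4 and 21.6), so that the lowest level with Dex was above the highest without it. Its difference in the CD71/CD24a sort was 1.45, and its rise in the other pairs was 1.58 ± 0.13 (SE, limma adjusted p = 4.34e-04, higher in 3 of 3 pairs). For genes named for passing 2-fold, here and below, counts over 3 pairs and statements of no overlap include the pair that picked them. The share of all genes with such patterns was not counted.

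Tsc22d3, also called GILZ, encodes an anti-inflammatory leucine zipper protein. It had 18.0 in Dex and 5.83 in water (CD71 sort, 19.0 and 7.25; with DMOG, 15.3 and 6.17), with no overlap between libraries with and without Dex. Per1, a clock gene with receptor elements in its promoter in other cells, had 12.2 in Dex and 3.85 in water, a difference of 1.45. The other clock genes on the list moved less, so that Per1 was 1 of 13 past 2-fold, with Per2 at 3.33 in Dex and 3.23 in water.

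Ddit4, which encodes an inhibitor of mTORC1, had 12.2 in Dex and 3.09 in water, a difference of 1.69. It had 19.4 in Dex and 2.34 in water in the CD71 sort, and 32.8 in Dex with DMOG and 10.7 in DMOG. The level without Dex was thus highest under DMOG, and close to the level with Dex alone. The remaining members past 2-fold were the metallothionein gene Mt2 (102 in Dex, 45.4 in water), the transglutaminase gene Tgm2 (24.6 in Dex, 10.8 in water) and Zfp36l2, which encodes an RNA-binding protein that promotes mRNA decay (66.5 in Dex, 32.2 in water). Mt2 shared 57.3% and Tgm2 19.9% of its sequence words with other genes or pseudogenes, so reads could be split between copies.

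Several members stood just under the 2-fold line on the log2(normalised RPKM + 1) scale and rose in the other pairs by limma's adjusted p. Klf9, a transcription factor gene, had 5.001 in Dex and 2.16 in water (adjusted p = 0.0183, higher in 3 of 3 pairs). Zbtb16, which encodes the zinc finger protein PLZF, had 7.54 in Dex and 3.53 in water (adjusted p = 0.00941, 3 of 3 pairs). Glul, the glutamine synthetase gene, had 145 in Dex and 76.8 in water (adjusted p = 0.00566, 3 of 3 pairs). Other classical targets differed little in the CD71/CD24a sort: Dusp1, a MAP kinase phosphatase gene, had 1.57 in Dex and 1.59 in water, and Nfkbia, which encodes an inhibitor of NF-kappa B, had 2.61 in Dex and 2.89 in water. Nfkbia differed more in the CD71 sort, with 7.43 in Dex and 2.97 in water, and had 3.98 in Dex with DMOG and 2.92 in DMOG. Sgk1, Tat and Pdk4 were under 1 RPKM in both libraries, with Tat and Pdk4 at 0.

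**Figure D3:**
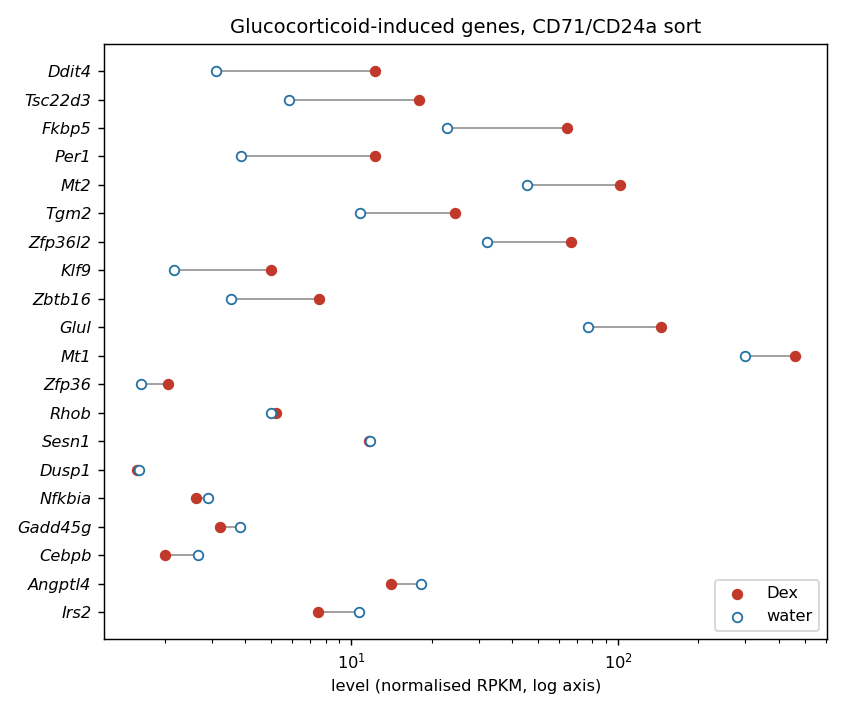
Levels of the 20 expressed glucocorticoid-induced genes (y axis) in Dex (filled points) and water (open points) libraries of the CD71/CD24a sort, on a log axis in normalised RPKM, ordered by difference. The upper genes, from Ddit4 to Zfp36l2, are the 7 past 2-fold, and Irs2 at the bottom had 7.51 in Dex and 10.7 in water.

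The receptor and its partners differed little. Nr3c1 had 13.1 in Dex and 11.7 in water, a difference of 0.16. Of 17 expressed genes for the receptor, its chaperones and its cofactors, Fkbp5 was the only one past 2-fold, and the median difference was 0.10. Hsp90ab1, the main cytoplasmic chaperone gene of the list by level, had 2206 in Dex and 2040 in water. Of 18 inflammatory genes, which glucocorticoids repress in immune cells, 5 were expressed and 0 of them passed 2-fold in either direction. Icam1, an adhesion molecule gene, had 0.530 in Dex and 1.34 in water.

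Of the 12 largest differences in favour of Dex, 5 belonged to genes on the list of integrins and cytoskeleton regulators, which was made with these differences known. Arhgef3, which encodes a guanine nucleotide exchange factor, had 18.6 in Dex and 2.14 in water. It had 15.5 in Dex and 2.15 in water in the CD71 sort, and 18.1 in Dex with DMOG and 2.08 in DMOG. The 3 Dex libraries lay between 15.5 and 18.6 and the 3 others between 2.08 and 2.15, so the groups were far apart and each was tight. The ratio in the CD71/CD24a sort was 8.70 (exact 95% counting interval 7.41 to 10.3), and the rise in the other pairs was 2.51 ± 0.14 (SE, limma adjusted p = 1.02e-04).

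Mmp2, which encodes a matrix metalloproteinase, was near the detection limit without Dex. It had 5.29 in Dex and 0.0759 in water, from about 361 and 5 reads (CD71 sort, 6.67 and 0.162; with DMOG, 3.78 and 0.0897). The ratio was 69.8, with a wide counting interval of 29.9 to 218 that reflects the few reads in water. Itgb3, the integrin beta 3 chain that pairs with CD41 on megakaryocytes, had 15.3 in Dex and 3.02 in water, while Itga2b, the gene of that partner, was given above. Of 12 expressed megakaryocyte markers, Itgb3 alone passed 2-fold.

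Enah, which encodes an actin regulator of the Ena/VASP family, had 8.65 in Dex and 1.77 in water, and its relatives Vasp (18.6 in Dex, 24.4 in water) and Evl (3.62 in Dex, 4.37 in water) did not follow it. Frmd4a, a FERM domain scaffold gene, had 23.2 in Dex and 6.09 in water. All 4 of Arhgef3, Itgb3, Enah and Frmd4a rose in the other pairs, as did Mmp2. Thbs1, the gene of the matrix protein thrombospondin 1, went the other way with 5.31 in Dex and 13.7 in water, and it fell in the other pairs by 1.03 ± 0.14 (SE, limma adjusted p = 0.00603, lower in 3 of 3 pairs). Of the 17 expressed genes on this list 5 were thus 2-fold higher and 1 was lower, with a median difference of -0.06. Their direction is not independent of the choice of the list.

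Other genes among the 12 largest differences in favour of Dex served varied functions. Hopx, a homeodomain-only protein gene, had 16.2 in Dex and 3.01 in water, with 26.1% of its sequence shared. Zfp1, a zinc finger gene, had 5.44 in Dex and 0.814 in water, and Tent5a, a poly(A) polymerase gene, had 6.41 in Dex and 1.42 in water. Tph1, which encodes the first enzyme of serotonin synthesis, had 2.90 in Dex and 0.186 in water, from about 113 and 7 reads. Gsta4, a glutathione S-transferase gene, had 10.8 in Dex and 2.79 in water. All 5 rose in the other pairs, with limma adjusted p-values from 3.31e-04 (Hopx and Zfp1) to 0.00388 (Tent5a) and a higher level with Dex in 3 of 3 pairs.

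A pair of serine protease inhibitor genes of the Serpina3 cluster stood out together. Serpina3g had 44.4 in Dex and 10.96 in water (CD71 sort, 34.6 and 8.49; with DMOG, 34.1 and 11.4). Serpina3f had 2.25 in Dex and 0.188 in water (CD71 sort, 1.77 and 0.335; with DMOG, 1.09 and 0.238). The genes are close copies that shared 27.4% (Serpina3g) and 26.2% (Serpina3f) of their words with other sequence, so part of 1 signal may be counted for the other. Pnmt, which encodes the enzyme that makes adrenaline from noradrenaline and is a glucocorticoid target in the adrenal medulla, had 1.41 in Dex and was at 0 in water. It was at 0 in the other 2 libraries without Dex as well, against 3.82 in the CD71 sort with Dex and 1.19 in Dex with DMOG. From about 36 reads in Dex and 0 in water, the exact 95% counting interval of the ratio began at 9.03.

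Genes of cytokine signalling moved in both directions. Of 20 expressed members 2 were 2-fold higher and 1 was lower, and the median difference was -0.07. Socs1, which encodes a feedback inhibitor of JAK kinases, had 5.22 in Dex and 1.51 in water, against 32.6 and 4.99 in the CD71 sort and 5.95 and 1.72 with DMOG. Its rise in the other pairs was 1.92 ± 0.23 (SE, limma adjusted p = 0.00318, higher in 3 of 3 pairs). Jak1 had 60.4 in Dex and 30.5 in water, and rose in the other pairs (limma adjusted p = 0.00994, 3 of 3 pairs), while Jak2, the kinase of the erythropoietin receptor, had 11.5 in Dex and 11.2 in water. Of the STAT5 targets that erythropoietin induces, Cish had 10.6 in Dex and 12.04 in water, Pim1 52.1 in Dex and 59.4 in water, and oncostatin M (Osm) 0.513 in Dex and 1.91 in water. These 3 genes were lower with Dex in 3 of 3 pairs, by 0.17 (Cish) and 0.19 (Pim1) on the log2 scale in the CD71/CD24a sort. Osm fell in the other pairs (limma adjusted p = 0.020), but Cish (adjusted p = 0.151) and Pim1 (adjusted p = 0.252) were not called there. Id1, an inhibitor of differentiation factors, had 12.5 in Dex and 26.7 in water, with a limma adjusted p of 0.0749 in the other pairs (lower with Dex in 3 of 3 pairs).

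Among growth factor receptors, Kit, the receptor of stem cell factor, had 65.3 in Dex and 43.3 in water, a difference of 0.58. It had 93.0 in Dex and 45.4 in water in the CD71 sort, and 79.0 in Dex with DMOG and 49.5 in DMOG. The 3 libraries with Dex were thus all above the 3 without it, and Kit rose in the other pairs by 0.84 ± 0.14 (SE, limma adjusted p = 0.0184, 3 of 3 pairs). Epor had 38.3 in Dex and 43.5 in water, and Igf1r 12.4 in Dex and 12.5 in water. Csf2rb2, which encodes the beta chain of the mouse interleukin 3 receptor, had 1.94 in Dex and 5.51 in water, and its close paralogue Csf2rb, the shared beta chain of the interleukin 3, interleukin 5 and GM-CSF receptors, had 7.62 in Dex and 12.4 in water. Both fell in the other pairs, with limma adjusted p-values of 0.00286 (Csf2rb2) and 0.00564 (Csf2rb) and a lower level with Dex in 3 of 3 pairs. Csf2rb2 shared 29.3% of its sequence.

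The surface proteins used to sort the cells gave unlike patterns. Cd24a had 267 in Dex and 103 in water, a difference of 1.37 with a ratio of 2.60 (exact 95% counting interval 2.51 to 2.70). It had 245 in Dex and 165 in water in the CD71 sort, and 259 in Dex with DMOG and 120 in DMOG, and it rose in those pairs by 0.83 ± 0.16 (SE, limma adjusted p = 0.0325, higher in 3 of 3 pairs), a call that was lost with a pseudocount of 0.1. The difference between the CD71/CD24a pair and the others was not significant for Cd24a (limma, with 0 of 9535 genes called). Fresh cells had 23.4 in BFU-E and 176 in CFU-E. Tfrc, the gene of CD71, went the other way with 167 in Dex and 228 in water (CD71 sort, 114 and 201; with DMOG, 177 and 233). It was lower with Dex in 3 of 3 pairs, but its adjusted p in the other pairs was 0.104.

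Genes of the mature red cell did not move as a block. Of 22 expressed membrane genes 2 were 2-fold higher, Cd24a and Rhag, and 0 were lower, with a median difference of 0.01. Rhag, which encodes the Rh-associated glycoprotein, had 120 in Dex and 53.1 in water (CD71 sort, 108 and 66.2; with DMOG, 110 and 52.4), and rose in the other pairs (limma adjusted p = 0.0156, 3 of 3 pairs). Aqp3, an aquaporin gene, had 4.09 in Dex and 1.65 in water and rose as well (adjusted p = 0.0365, 3 of 3 pairs), a call also lost with a pseudocount of 0.1. Dmtn, another gene of this list, went the other way with 0.933 in Dex and 1.62 in water. It fell in the other pairs (limma adjusted p = 0.0248, lower in 3 of 3 pairs), and was the 1 membrane gene called lower there. Epb41, the gene of a membrane skeleton protein, had 76.9 in Dex and 70.8 in water.

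Beta globin transcripts were lower with Dex. Hbb-bt had 43.8 in Dex and 119 in water (CD71 sort, 371 and 822; with DMOG, 37.5 and 170), a difference of -1.43, and it fell in the other pairs by 1.65 ± 0.21 (SE, limma adjusted p = 0.00389, lower in 3 of 3 pairs). Hbb-b2, at 44.8 in Dex and 122 in water, gave nearly the same values, and Hbb-bt shared 59.4% of its sequence with other genes, so the pair cannot be counted as separate observations. Hba-a1, an alpha globin gene, had 4.73 in Dex and 5.12 in water, against 98.7 in Dex and 281 in water in the CD71 sort and 1.68 in Dex with DMOG and 3.04 in DMOG. The CD71 sort thus held far more globin message in both arms than the CD71/CD24a sort. Of the 5 expressed globin genes 2 were 2-fold lower and 0 higher, with a median of -0.56. In the other pairs limma called 4 of 5 lower, but Hba-a1 and Hba-a2 are not separate observations either. They shared 75.2% (Hba-a1) and 92.4% (Hba-a2) of their words, and their limma differences were -1.045 and -1.044. The calls of Hba-a1 and Hba-a2 were lost with 1 Dex coefficient over the 3 pairs. These calls were also lost without the CD71 sort pair or without the DMOG pair.

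Heme synthesis and iron genes stayed within 2-fold, 23 of 23. Alas2, the erythroid gene of the first heme enzyme, had 4.61 in Dex and 6.11 in water, and the ferrochelatase gene Fech had 52.7 in Dex and 50.5 in water. The ferritin heavy chain gene Fth1 was the most abundant member, with 3511 in Dex and 1965 in water, a difference of 0.84. It was higher with Dex in 3 of 3 pairs and rose in the other pairs (limma adjusted p = 0.0390), but not with a pseudocount of 0.1. The light chain gene Ftl1 had 170 in Dex and 281 in water, a difference of -0.72, with an adjusted p of 0.635 in the other pairs. Ftl1 shared 63.8% of its sequence words with other genes or pseudogenes.

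**Figure D4:**
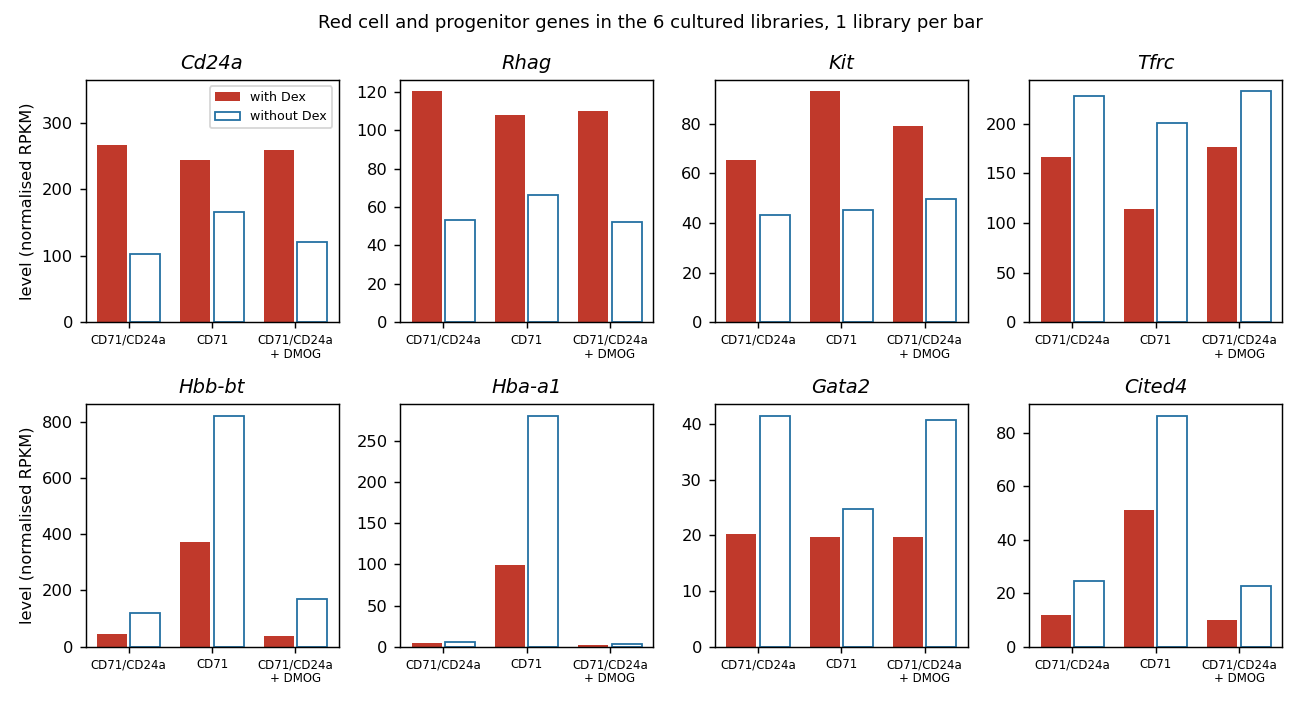
Levels (y axis, normalised RPKM) of 8 genes in the 6 cultured libraries, with filled bars for libraries with Dex and open bars for those without, grouped by culture pair along the x axis; each bar is 1 library, so there are no error bars. Cd24a, Rhag and Kit are higher with Dex in each pair and Tfrc, Hbb-bt, Hba-a1, Gata2 and Cited4 are lower in each pair; globin levels of the CD71 sort stand above those of the CD71/CD24a sort.

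Among the transcription factors that drive red cell genes, Gata1 (130 in Dex, 133 in water) and Klf1 (66.3 in Dex, 75.4 in water) were close. Other regulators, given below, were lower with Dex. Of 20 expressed erythroid regulators 1 was 2-fold higher, Trim58, a ubiquitin ligase gene of late erythroblasts (13.1 in Dex, 5.77 in water), and 0 were lower. Trim58 was not called in the other pairs (limma adjusted p = 0.104). Of the 20 regulators 5 lay above 0, and limma called 0 higher and 2 lower in the other pairs. The median over the list was -0.16, against 0.01 in the CD71 sort and -0.16 in the pair with DMOG. Cited4, a gene for a transcriptional coactivator, had 11.9 in Dex and 24.4 in water (CD71 sort, 51.0 and 86.4; with DMOG, 10.0 and 22.8) and fell in the other pairs by 0.93 ± 0.14 (SE, limma adjusted p = 0.011, lower in 3 of 3 pairs). Lmo2, a bridging protein of the Gata1 complex, had 102 in Dex and 169 in water and fell as well (adjusted p = 0.0441, 3 of 3 pairs; lost with a pseudocount of 0.1), and Zfpm1, which encodes the Gata1 cofactor FOG1, had 37.2 in Dex and 64.7 in water with an adjusted p of 0.0756 (lower in 3 of 3 pairs).

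Progenitor genes gave 0 members 2-fold higher and 1 lower among 23, with a median of 0.001. The lower one was Gata2, the GATA factor of stem and early progenitor cells. It had 20.3 in Dex and 41.6 in water (CD71 sort, 19.7 and 24.7; with DMOG, 19.7 and 40.8), so the 3 libraries with Dex were alike and the water library of the CD71 sort lay nearest to them. Its adjusted p in the other pairs was 0.134. Myb had 83.7 in Dex and 82.2 in water, and Runx1 21.4 in Dex and 20.8 in water.

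**Figure D5:**
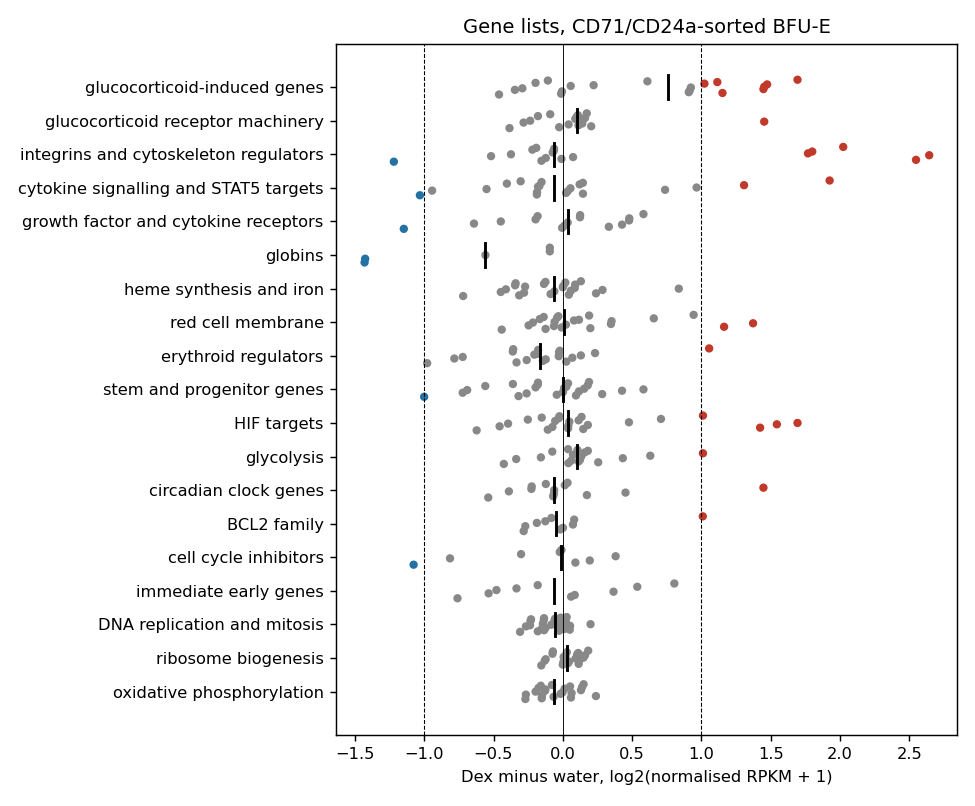
Dex minus water differences (x axis, log2 scale) of the expressed members of 19 gene lists (y axis) in the CD71/CD24a sort; each point is 1 gene, black bars are medians and dashed lines mark 2-fold. Glucocorticoid-induced genes have the highest median (0.76) and globins the lowest (-0.56) among the lists drawn, while replication, ribosome biogenesis and oxidative phosphorylation genes lie close to 0.

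Growth and proliferation genes hardly differed between the libraries. Of 28 replication and mitosis genes 0 passed 2-fold in either direction, with differences from -0.31 to 0.20. Mcm5, a subunit of the replicative helicase, had 153 in Dex and 151 in water, and Mki67, the gene of the proliferation antigen Ki-67, had 95.1 in Dex and 96.2 in water. The 20 ribosome biogenesis genes ranged from -0.16 to 0.18 and the 21 oxidative phosphorylation genes from -0.27 to 0.24. Limma called 0 genes of these 3 lists in the other pairs, with 1 replication gene, 1 ribosome biogenesis gene and 0 oxidative phosphorylation genes at an unadjusted p under 0.05. Nucleolin (Ncl), a ribosome biogenesis gene, stood at 649 in Dex and 600 in water in the CD71/CD24a sort. Among cell cycle inhibitors Cdkn1a, which encodes p21, had 8.31 in Dex and 15.4 in water, with an adjusted p of 0.0507 in the other pairs (lower in 3 of 3 pairs). Gadd45b, a stress response gene, had 1.13 in Dex and 3.50 in water, with an adjusted p of 0.168. Bcl2, the founding anti-apoptotic gene of its family, had 6.66 in Dex and 2.80 in water and rose in the other pairs by 1.22 ± 0.14 (SE, limma adjusted p = 0.00267, 3 of 3 pairs), whereas Bcl2l1, the gene of BCL-XL, had 16.9 in Dex and 19.3 in water.

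Genes that respond to low oxygen were read because the same sorted cells were also treated with DMOG. Of 23 expressed HIF targets and HIF genes 4 were 2-fold higher with Dex alone and 0 were lower, with a median of 0.04. Hif3a, which encodes a HIF alpha subunit, had 54.7 in Dex and 18.1 in water (CD71 sort, 97.3 and 38.3; with DMOG, 58.7 and 21.5), a difference of 1.54 with no overlap between the libraries with and without Dex. Egln3, the gene of prolyl hydroxylase PHD3, had 5.65 in Dex and 1.48 in water, and 35.6 in Dex with DMOG and 16.4 in DMOG. Pfkfb4, which encodes an enzyme that sets the level of a regulator of glycolysis, had 8.04 in Dex and 3.49 in water and was the 1 member of 19 glycolysis genes past 2-fold. Ddit4, given above, was the fourth. Most HIF targets stayed within 2-fold, and some were close, among them Vegfa (8.23 in Dex, 8.95 in water), Pdk1 (23.1 in Dex, 22.5 in water) and Ldha (1047 in Dex, 1018 in water). Others within 2-fold differed more, such as Ndrg1 (0.71) and Mxi1 (-0.62). In the other pairs limma called 5 of the 23 higher and 0 lower: the 4 above and Ndrg1 (adjusted p = 0.0167).

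The 12 largest differences downward contained several short or repeated transcripts. Rpph1, the RNA component of RNase P, had 5.75 in Dex and 20.9 in water, but 1.70 and 0.811 in the CD71 sort and 4.65 and 4.76 with DMOG, and 70.1% of its sequence was shared. It had the smallest p for a difference between the CD71/CD24a pair and the others (unadjusted p = 6.3e-05, adjusted p = 0.602). The ribosomal protein gene Rps27 had 2.89 in Dex and 11.6 in water, against 2.38 and 151 in the CD71 sort and 4.24 and 10.9 with DMOG. The histone gene H4c2 (1.29 in Dex, 4.14 in water) shared 77.0% of its words. H4c11 was at 0 in Dex and at 1.18 in water, from 0 and about 20 reads, with an upper limit of 0.197 for the ratio in the exact 95% counting interval. It was at 0 in Dex and 1.58 in water in the CD71 sort, but at 0.312 in Dex with DMOG and at 0 in DMOG. Of the 18 lower genes with a sequence value 10 (55.6%) shared 10% or more, and of 52 such higher genes 7 (13.5%), beside 22.9% of 9575 expressed genes.

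Single-copy genes were also among them. Parm1, which encodes a mucin-like membrane protein, had 7.03 in Dex and 21.4 in water (CD71 sort, 9.62 and 26.0; with DMOG, 10.6 and 27.6), with each Dex library below each library without it. It fell in the other pairs by 1.32 ± 0.13 (SE, limma adjusted p = 0.00114). Grtp1, a TBC domain gene, had 4.65 in Dex and 12.6 in water, and Magee2, a melanoma antigen family gene, had 0.252 in Dex and 2.31 in water. Both fell in the other pairs, with limma adjusted p-values of 0.00149 (Grtp1) and 0.00387 (Magee2) and a lower level with Dex in 3 of 3 pairs. Phlda2, an imprinted growth regulator, had 0.182 in Dex and 1.63 in water from about 3 and 27 reads, but 0.901 and 0.446 in the CD71 sort.

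Other genes among the 54 are known from signalling in lymphoid and myeloid cells. Il10ra, the interleukin 10 receptor gene, had 3.45 in Dex and 0.502 in water, and Sla, which encodes a Src-like adaptor, had 7.20 in Dex and 1.79 in water. Prkcq, the gene of protein kinase C theta, had 21.6 in Dex and 10.0 in water. These 3 genes rose in the other pairs (limma adjusted p from 0.00149 for Sla to 0.0244 for Il10ra, 3 of 3 pairs; the call of Il10ra was lost with a pseudocount of 0.1). Il1rl1, the interleukin 33 receptor gene, had 5.09 in Dex and 1.59 in water, but 8.57 and 7.92 in the CD71 sort, and its adjusted p was 0.420.

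Further genes past 2-fold on the higher side had unlike roles. Nt5e, the gene of the ecto-5′-nucleotidase CD73, had 3.55 in Dex and 0.637 in water, and Ank, which encodes a pyrophosphate transporter, had 26.5 in Dex and 9.48 in water. B4galt1, a galactosyltransferase gene, had 62.0 in Dex and 26.9 in water. Slc44a2, a choline transporter gene, had 34.1 in Dex and 14.9 in water, and Clstn1, the calsyntenin 1 gene, had 61.3 in Dex and 20.9 in water. All 5 rose in the other pairs, with limma adjusted p-values from 9.75e-04 (Ank and Clstn1) to 0.0323 (Nt5e). Of the higher genes that were tested but not called there, Snord87 (14.5 in Dex, 6.24 in water) had 0 with Dex and 2.22 in water in the CD71 sort. Gramd3, Havcr2, Trim58, Il1rl1 and the record NM_001081036 were not called either. Cox7a1 (2.33 in Dex, 0.630 in water) was not tested, and had 0.202 with Dex and 0.225 in water in the CD71 sort.

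The members were also read between BFU-E and CFU-E in the fresh libraries, which share no library with the Dex pair. The Ter119-positive library was not used for this reading. Of the 54 genes higher with Dex 41 passed the 1 RPKM filter in fresh BFU-E or CFU-E. Of these, 10 were 2-fold higher in CFU-E, against 3.30% of all 10010 genes, and 14 were 2-fold lower, against 12.2%. The 10 were Acp5, Cd24a, Gsta4, Mt2, Rab3il1, Rec8, Rhag, Slc30a10, Snord87 and Tgm2. The 14 included Arhgef3, Fkbp5, Tsc22d3, Zfp36l2 and Bcl2. Of the 19 lower genes 15 passed, with Hbb-b2 and Hbb-bt higher in CFU-E and Cavin3, Gata2 and Parm1 lower. Genes higher with Dex therefore included both genes higher in CFU-E and genes higher in BFU-E, with a median CFU-E minus BFU-E difference of -0.34 against -0.08 for all genes.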

How the data were processed

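RPKM values per RefSeq record were computed by the authors and deposited as 1 file per library; per the submitters' processing notes they rest on mm9. Aligner, counting tool, use of strand and treatment of reads matching several places are not given in the sources used here. Files held 23041 records. Symbols came from a RefSeq table of GRCm38.p6 (22393 records) and GENCODE (118), and 530 had none. For the 2158 names with several records the one with the highest mean was used. In the CD71/CD24a files an exact 1 (7412 values in Dex, 7355 in water) was read as 0.

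Each library was divided by the median ratio to the geometric mean over the 6888 genes that reached 1 RPKM in each of the 9 libraries (1.16 for Dex, 1.17 for water). Reads were recovered from steps between low values: 66.9% to 69.9% of values came out whole within 0.1 reads up to 10 reads, against 20% by chance. Exact (Clopper-Pearson) 95% intervals and floors of 3 reads describe counting error alone, because reads copied by PCR are not separate molecules. Lengths came from GRCm38, another build. Sequence sharing is the percent of 32-base words found in another gene or pseudogene.

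limma 3.58.1 (R 4.3.3; empirical Bayes with a mean-variance trend) was fitted to log2(normalised RPKM + 1) of the 6 cultured libraries with culture pair, Dex, and Dex in the CD71/CD24a pair as terms, on 9535 genes with a mean of 1 or more, at an adjusted p of 0.05. The Dex term is then the mean of the other 2 pairs; 1 residual and 8.58 prior degrees of freedom were left. The pairing comes from the protocol, which divides sorted cells between arms. Nothing says that arms came from separate cultures or animals, so p-values measure only the spread between these libraries, which may be technical. On simulated data of 8682 genes, 200 were changed by 2 on the log2 scale for each comparison. For Dex in the other pairs the fit recovered 100% with 7 false calls, and for the difference 96.5% with 16. The simulation drew each gene around a common level, with the same spread for all genes and no difference between culture pairs. It therefore does not give the power in the real libraries, where Rpph1, with a difference of -1.97, had a limma adjusted p of 0.602.

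Named genes are the 12 largest differences in each direction and the listed genes past 2-fold or high in level; further genes past 2-fold were named after their values were seen. The members and gene lists were chosen with earlier results of these data known. Alternatives were another pseudocount, other filters, no scaling, the 1 values kept, records summed, no trend, 1 Dex term over the 3 pairs and, chosen after seeing the data, 1 Dex term over each 2 pairs.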

Additional observations from a re-analysis of the deposited data

How the results depend on the processing

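The count of genes past 2-fold depended on the pseudocount and the filter. With a pseudocount of 0.1 it was 97 higher and 72 lower, which kept the 54 and the 19, and 51 genes were then 2-fold higher in all 3 pairs, against 33. Among genes at 5 or more RPKM 12 were lower. Without scaling, which moved the median difference by -0.0079, 57 were higher and 24 lower. With the deposited 1 values kept, 53 were higher and 18 lower; with the records of a symbol summed, 57 and 20.

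For Dex in the other 2 pairs, limma called 65 genes higher on genes with a mean of 5 or more normalised RPKM, 65 lower without scaling, and 60 lower with 1 Dex coefficient over the 3 pairs. With no filter it called 0 higher and 0 lower, with 1036 at an unadjusted p under 0.05 and 0.686 prior degrees of freedom; the cause was not tested. The difference of the CD71/CD24a pair gave 0 calls under each of the 7 settings that estimate it, which excludes fits with 1 Dex coefficient. Among named and listed genes, 10 calls were lost with a pseudocount of 0.1, 6 with 1 Dex coefficient over the 3 pairs (17 were gained), 1 with the deposited 1 values kept (Pnmt) and 71 with no filter. No named difference changed sign while past 2-fold. Leaving out each culture pair in turn, with 1 Dex coefficient and chosen after seeing the data, gave 104 to 521 genes higher and 28 to 733 lower, both highest without the CD71 sort pair, where 90 named and listed genes were gained and 2 lost (Hba-a1 and Hba-a2). Without the DMOG pair 21 were gained and 4 lost (Apoa1, Hba-a1, Hba-a2 and Pim2). The model with a separate Dex term for the CD71/CD24a pair has no residual degree of freedom without the CD71 sort or the DMOG pair. Each fit holds the culture pair as a block; the labels give no replicate numbers. Depth limits low genes: a 1 kb gene with 3 reads would stand at 0.157 RPKM in Dex and 0.163 RPKM in water.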

Other observations

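Immediate early genes and amino acid metabolism were not described above. Of 10 expressed immediate early genes 0 passed 2-fold in the CD71/CD24a sort. Maff, a small MAF factor gene, had 4.06 in Dex and 2.49 in water there, against 5.86 and 1.004 in the CD71 sort and 12.1 and 2.72 with DMOG, and it rose in those pairs by 1.80 (limma adjusted p = 3.31e-04, higher in 3 of 3 pairs), a call lost with 1 Dex coefficient over the 3 pairs. Myc had 160 in Dex and 202 in water. The cystine transporter gene Slc7a11 had 1.59 in Dex and 3.66 in water (limma adjusted p = 0.0956 in the other pairs), while the amino acid transporter gene Slc7a5 had 166 in Dex and 163 in water.

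The most extreme of the 35 genes high in the CD71 sort water library was the record NM_008049, with 0.308 in Dex and 580 in water in that sort, 0.141 in Dex and 0.916 in water in the CD71/CD24a sort, and 0.628 in Dex with DMOG and 0.329 in DMOG. Gm5148 followed, with 1.82 in Dex and 248 in water in the CD71 sort, against 1.55 in Dex and 0.608 in water in the CD71/CD24a sort.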
